A study of Mus musculus with 4 samples.

Results

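The 34 genes described here encode the glucose and lactate carriers, the enzymes and regulators of glycolysis, and common targets and sensors of the hypoxia response. They were chosen by name and role, with earlier results of these data known, from the 32285 genes of a single-cell RNA sequencing (scRNA-Seq) series on mouse melanoma. By role they are 3 transporters, 14 glycolytic enzymes, 3 regulators of glycolysis, 11 hypoxia response genes and 3 oxygen-sensing genes. All 34 were present in the count tables, and the genes lie on 14 chromosomes. The tumors were grown from YUMMER1.7 cells, a mouse melanoma line used as an immunotherapy-sensitive model, implanted under the skin of male wild-type C57BL/6J mice aged 7 to 8 weeks. From day 7 the mice received isotype IgG1 (ctrl/isotype), anti–PD-1 at 10 mg/kg (clone RMP1-14), anti-MIF at 20 mg/kg (clone IIID.9) or both antibodies (anti–PD-1/anti-MIF). PD-1 is an inhibitory receptor of T cells, and MIF is a cytokine that signals through CD74. The short treatment cohort was collected on day 14 after 1 week and 2 doses, and the long treatment cohort on day 21 after 2 weeks and 4 doses. Sorted CD45+ and CD45- cells were recombined at 80% and 20%, and the arms of a cohort were marked with hashtag antibodies and sequenced as 1 library. Each arm was therefore a single sample, mice within an arm could not be told apart, and cohort, day and library cannot be told apart. A further hashtag, listed as anti–PD-1, anti-MIF and anti-DDT together, marked cells that entered no test.

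Glycolysis splits glucose to pyruvate, and lactate dehydrogenase turns pyruvate to lactate, which leaves the cell through monocarboxylate carriers. When oxygen is scarce, HIF-1α escapes the prolyl hydroxylases that mark it for degradation, and HIF-1 binds short hypoxia response elements to raise transcription of glucose carriers, glycolytic enzymes and genes of mitophagy and oxygen sensing. In tumors, macrophages that lie in poorly perfused tissue and activated T cells both use this program.

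The hashtags assigned 1671 cells to the 4 arms of the long treatment cohort and 3119 to those of the short treatment cohort, with 1563467 to 8712647 unique molecular identifiers (UMIs, each a captured transcript) per arm. Cells were gated by marker UMIs: 2421 monocyte/macrophage cells (Lyz2 with Ly6c2, C1qb or Thbs1), 570 T cells (Cd3e), 139 NK cells (Ncr1), 149 mature DCs (Ccr7 with Fscn1) and 1511 cells left ungated. None of these marker genes is among the 34. Genes not used in the gates were checked in each. Csf1r, a macrophage growth factor receptor gene, averaged 421, 435 and 362 CPM (UMIs per 1000000 gene UMIs of the gate) in the C1qb-led, Ly6c2-led and Thbs1-led subsets of the monocyte/macrophage gate, against 5.55 CPM in T cells and 6.39 CPM in NK cells. It belongs to a list of 8 macrophage genes that was not even across the subsets. Against C1qb-led cells, 5 of the 8 were lower and 1 higher in Thbs1-led cells (edgeR adjusted p under 0.05). In Ly6c2-led cells 5 were lower and none higher. Ms4a7 was at -3.63 and -2.58 and Apoe at -1.49 and -2.18 on the log2 scale, in that order of subsets. Klre1, an NK receptor, averaged 494.6 CPM in NK cells. In T cells the CD3 chain genes Cd3g and Cd3d averaged 1322 and 1021 CPM and the T cell receptor gene Trac 332 CPM, and in mature DCs Cacnb3, Il12b and the chemokine gene Ccl22 averaged 948, 778 and 715 CPM. A list of 6 T cell genes that were not gate markers summed to a median of 4495 CPM in T cells, 274 CPM in NK cells, 17.0 CPM in mature DCs (Cd3d, Cd3g and Trbc2 at 0) and 3.03 CPM in monocyte/macrophage cells. Of 8 melanoma genes, Mlana, Tyr, Dct, Tyrp1 and Sox10 were at 0 in the monocyte/macrophage gate, where the list summed to 47.3 CPM in the lowest arm, 67.6 at the median and 89.2 in the highest, nearly all of it Mitf. The long treatment ctrl/isotype arm held only 4 NK cells and was left out for that gate, and gate sums of single arms reached down to 6 mature DCs and 8 Thbs1-led cells. The libraries shared 20 cell barcodes, which is a small part of 2516 and 4987.

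To show the sequence that the hypoxia program reads, the 250 bases upstream of each start site (RefSeq, GRCm38.p6) were searched for ACGTG and GCGTG, the core letters of the hypoxia response element, on both strands. CACGTG is its own reverse complement, so it counts once on each strand. One core is shown in capitals for each of 4 genes that differed between gates below: the glucose carrier gene Slc2a1 (chr4:119108664-119108708, plus strand), the hexokinase gene Hk2 (chr6:82774482-82774526, minus strand), the mitophagy gene Bnip3 (chr7:138909589-138909633, minus strand) and the HIF prolyl hydroxylase gene Egln3 (chr12:54204079-54204123, minus strand), each in the strand of the gene. Any further core in these stretches is in lower case, apart from one on the other strand that shares letters with the Bnip3 capitals.
Slc2a1: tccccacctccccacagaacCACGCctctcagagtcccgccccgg
Hk2: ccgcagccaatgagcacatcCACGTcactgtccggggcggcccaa
Bnip3: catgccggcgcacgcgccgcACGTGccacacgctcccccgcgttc
Egln3: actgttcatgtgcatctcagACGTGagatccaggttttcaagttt
The last base of the core in capitals lies 57, 48, 103 and 225 bases before the start site, in that order. All 4 windows lie upstream of the gene as GENCODE places it on GRCm38 (Slc2a1 chr4:119108711-119137983, Hk2 chr6:82725025-82774454, Bnip3 chr7:138890836-138909519 and Egln3 chr12:54178981-54203860). Of the 31 members with a promoter in the table, 25 (80.6%) held a core, against 10431 of 27025 promoters in all (38.6%) and 3374 of 5678 (59.4%) among genes expressed in the macrophage subsets. Bnip3 and Ldha held 5 each, and Aldoa, Gpi1, Hk1, Mxi1, Pkm and Tpi1 held none. No promoter was used for Slc2a3, Ndrg1 and Bnip3l. A match is a description of letters and does not show that HIF binds there.

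The first question was which immune cells of the tumor carried these transcripts. Summed over all 34 genes, monocyte/macrophage cells held the most among the gates set by markers. The level was lower in T cells, NK cells and mature DCs in that order. Monocyte/macrophage sums in the long treatment cohort were 14198, 12792, 11604 and 10935 CPM in the ctrl/isotype, anti–PD-1, anti-MIF and combined (anti–PD-1/anti-MIF) arms, and 8909, 9453, 10896 and 9448 CPM in the same arms of the short treatment cohort. Ungated cells were not ranked. Their sums in the long arms, in the same order, were 9885, 9559, 9063 and 7586 CPM, each below the monocyte/macrophage sum. In the short arms they were 9166, 10291, 10252 and 10663 CPM, above the monocyte/macrophage sum in every arm but anti-MIF alone. Against the monocyte/macrophage sum of the same arm, the log2 ratio was -0.48 ± 0.31 in T cells (SD, n = 8), lower in 7 of 8 arms. It was -0.80 ± 0.27 in NK cells (SD, n = 7, lower in all 7) and -1.50 ± 0.34 in mature DCs (SD, n = 8, lower in all 8). The neighbours T and NK overlap within their spread, whereas the mature DC ratio lies further down than either. The 5 members with the most UMIs gave 56.1% of all member UMIs, and without them the ratios were -0.55, -0.99 and -1.38. All values are relative, being shares of the UMIs of a gate.

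**Figure D1:**
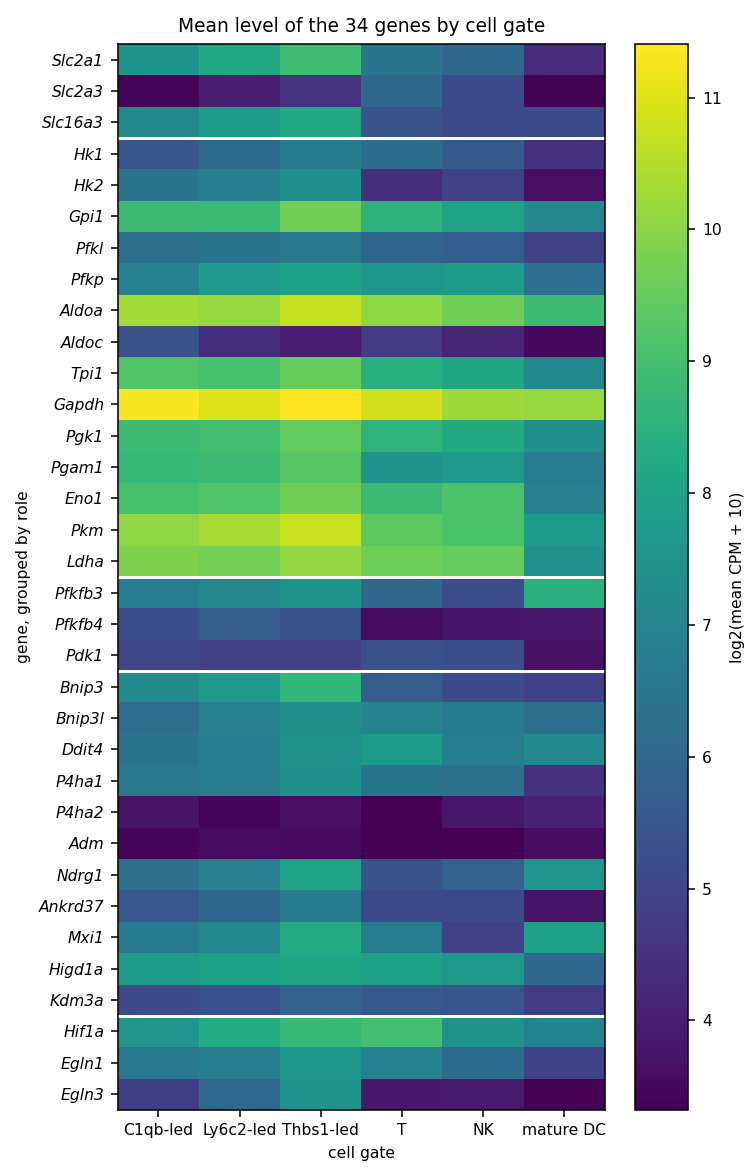
Mean level of the 34 genes (rows, by role) in 6 cell gates (columns), as log2(mean CPM + 10) over arms, with color for the level. Slc2a1, Egln3 and Bnip3 are highest in the Thbs1-led column, Slc2a3 in T cells (36.5 to 70.1 CPM over arms) and Pfkfb3 in mature DCs (178 to 563 CPM).

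T cells held less of most members than monocyte/macrophage cells, with Slc2a3, Ddit4 and Hif1a as the genes that were higher. Of 30 members tested in edgeR's quasi-likelihood test, 20 were lower and 3 higher in T cells at an adjusted p under 0.05, while 65.8% of all 5857 genes passed (33.8% higher and 32% lower). The share of members called, 76.7%, was thus only somewhat above the background, but the direction was not balanced, with a median log2 difference of -0.65 over members and 0.03 over all genes. Slc2a1, which encodes the glucose carrier GLUT1, ran from 35.04 to 110 CPM in T cells (median 75.5) and from 203 to 369 CPM in monocyte/macrophage cells (median 292). The ranges did not meet, and the log2 difference was -2.13 ± 0.21 (SE), or 4.37-fold (edgeR adjusted p = 2.15e-11). Slc2a3, which encodes the high-affinity glucose carrier GLUT3, went the other way. Its level was 36.5 to 70.1 CPM in T cells (median 58.1) against 1.72 to 10.8 CPM (median 5.88), a 10.0-fold difference with no overlap (log2 3.33 ± 0.28, edgeR adjusted p = 3.74e-13). The lactate exporter gene Slc16a3 (MCT4) fell to 7.64 to 73.0 CPM, from 153 to 244 CPM, which was 7.06-fold lower (log2 -2.82 ± 0.22).

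Among enzymes, 11 of 13 were lower in T cells and none was higher. Hk2, the inducible hexokinase, ran from 0 to 24.3 CPM in T cells (median 10.5) and from 70.6 to 131 CPM in monocyte/macrophage cells (median 101), and was 9.74-fold lower (log2 -3.28 ± 0.24, edgeR adjusted p = 5.24e-15). Hk1, the constitutive hexokinase, showed a log2 difference of -0.01 ± 0.18 and did not pass. The other 10 enzymes that passed differed less than Hk2, from Pgam1 (-1.62 ± 0.16) through Pkm (-1.20 ± 0.14) and Tpi1 (-0.96 ± 0.17) to Ldha (-0.37 ± 0.14), which encodes the lactate dehydrogenase A chain. Pfkfb3, whose product makes the activator of phosphofructokinase, was lower by 1.36 ± 0.20 on the log2 scale.

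In the hypoxia response group, 5 of 9 tested members were lower in T cells and 1 was higher. Bnip3, a mitophagy receptor gene, ran from 0 to 81.0 CPM (median 41.3) in T cells and from 188 to 315 CPM (median 192) in monocyte/macrophage cells. These ranges lie apart, and the log2 difference was -2.52 ± 0.23 (edgeR adjusted p = 3.32e-12). Ndrg1 and Ankrd37, both HIF targets, were lower by 2.20 ± 0.28 and 1.47 ± 0.23 on the log2 scale, and the mTORC1 inhibitor gene Ddit4 was higher by 0.82 ± 0.26. Of the oxygen-sensing genes, Egln3 was at 0 to 12.2 CPM in T cells (14 UMIs in all) and at 32.9 to 98.1 CPM in monocyte/macrophage cells, which was 13.9-fold lower (log2 -3.80 ± 0.33). Hif1a itself was higher in T cells, at 368 to 700 CPM (median 478) against 195 to 407 CPM (median 298), with ranges that overlap (log2 0.60 ± 0.15, edgeR adjusted p = 0.000939). Egln1, Pdk1, Pfkp, Higd1a, Hk1, Bnip3l and Kdm3a did not pass, at -0.24 to 0.19. Of the members with too few UMIs to test, Pfkfb4 had 9 UMIs in T cells (ratio 0.0814 to the monocyte/macrophage level) and Adm had 1 (ratio 0.164, 95% counting interval 0.00407 to 0.966). P4ha2 had none (95% counting interval of the ratio 0 to 0.721), and a floor of 3 UMIs over the gate would lie 1.79-fold below the monocyte/macrophage level.

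Free RNA from broken macrophages could put such transcripts into T cell droplets. Macrophage genes that T cells lack reached at most 1.27% of their monocyte/macrophage level in T cells of the long treatment cohort and 3.61% in the short. Slc2a1 in T cells stood at 27.3% and 25.1% of the monocyte/macrophage level, Bnip3 at 17.9% and 19.9%, Hk2 at 9.83% and 11.99%, and Egln3, the nearest of these to that background, at 5.24% and 8.04%. In NK cells the background reached 2.46% and 0.859%, and Egln3 of the short treatment cohort, at 0.672%, did not exceed it. In mature DCs it reached 5.605% and 5.87%, and Slc2a1 (4.63% and 2.51%) and Hk2 (2.56% and 2.61%) did not exceed it, so that their UMIs there cannot be told from background.

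**Figure D2:**
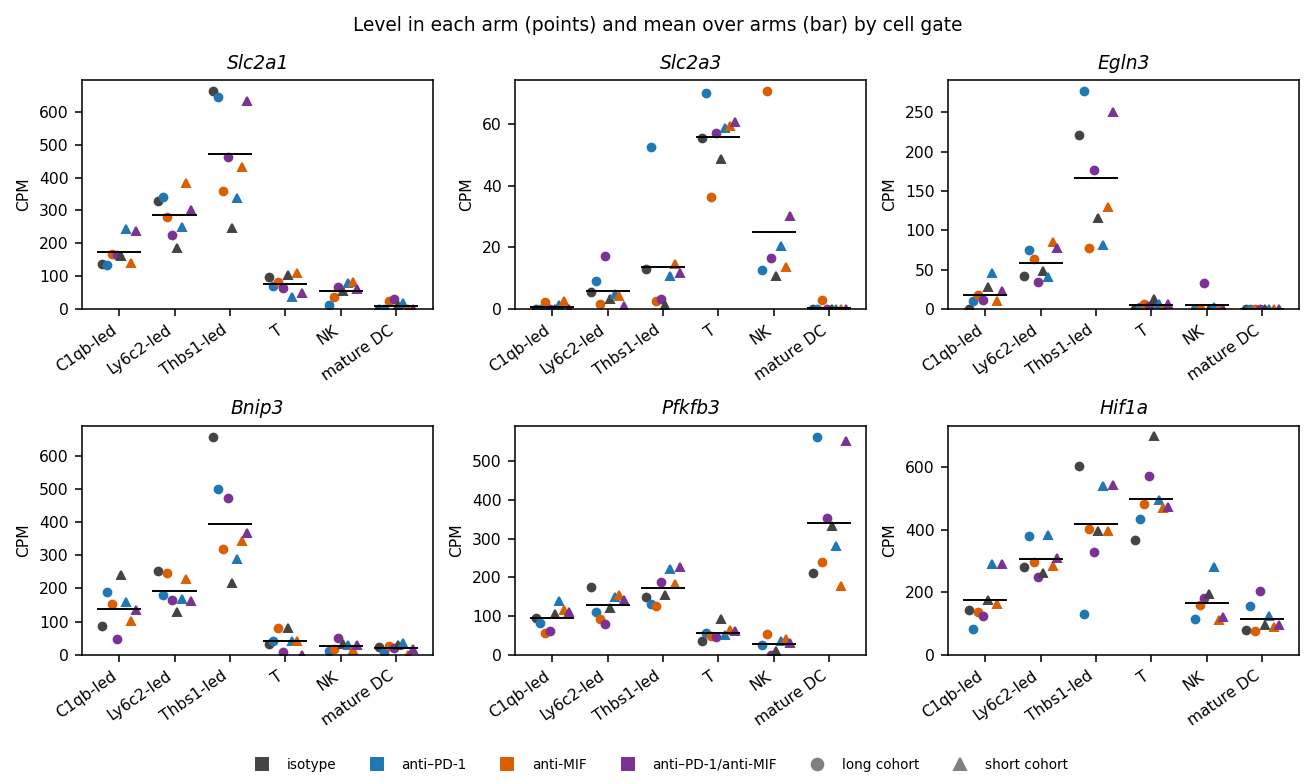
CPM of Slc2a1, Slc2a3, Egln3, Bnip3, Pfkfb3 and Hif1a in each arm (points) by gate, with the mean over arms as a bar. Slc2a3 is highest in T cells (36.5 to 70.1 CPM) and Pfkfb3 in mature DCs (178 to 563 CPM), whereas Slc2a1, Egln3 and Bnip3 rise towards the Thbs1-led cells.

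NK cells shared the low side of this pattern. Of 30 members tested, 22 were lower and 1 was higher than in monocyte/macrophage cells, beside 52.4% of all genes called (22.4% higher and 30% lower), and the medians were -0.99 for members and -0.06 for all genes. Slc16a3 (0 to 41.1 CPM, log2 -3.19 ± 0.34), Bnip3 (12.7 to 49.8 CPM, -3.17 ± 0.36) and Slc2a1 (12.7 to 82.2 CPM, -2.31 ± 0.29) had no arm that reached the monocyte/macrophage range. Mxi1, a MAX-binding antagonist of MYC that HIF induces, was lower by 3.10 ± 0.38, Hk2 by 2.50 ± 0.32, Pfkfb3 by 2.36 ± 0.33, Pkm by 1.46 ± 0.16, Pgam1 by 1.39 ± 0.20, Ndrg1 by 1.27 ± 0.34 and Ankrd37 by 1.24 ± 0.34 on the log2 scale. The single higher member was again Slc2a3, at 10.8 to 70.8 CPM (log2 1.93 ± 0.47, edgeR adjusted p = 0.000729), from 19 UMIs. T cells were the gate with the highest Slc2a3 level, and 5 of 6 T cell genes were higher in NK than in monocyte/macrophage cells too (Trbc2 by 7.15, Cd2 by 6.34, Trac by 4.63 and Cd3g by 3.79 on the log2 scale). Their list summed to 151.9 CPM in the lowest and 481 CPM in the highest NK arm, most of it Cd2 (158 CPM), which NK cells also express, and its part in the Slc2a3 difference was not tested. Hif1a was lower here, at 110 to 280 CPM (median 159, log2 -0.999 ± 0.207). Egln3 gave 3 UMIs in all NK cells, a ratio of 0.0576 to the monocyte/macrophage level (95% counting interval 0.0119 to 0.169). By role, 11 of 13 enzymes, 5 of 9 hypoxia response genes and 3 of 3 oxygen-sensing genes were lower.

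Mature DCs, the migratory dendritic cells marked by Ccr7 and Fscn1, had low levels of most members, and Pfkfb3 stood out above them. Of 30 members tested, 24 were lower and 3 were higher, beside 58.3% of all genes called (24.9% higher and 33.4% lower). The median log2 difference was -1.85 over members and -0.17 over all genes. All 13 enzymes tested were lower, among them Hk2 (8 UMIs, -3.87 ± 0.37), Pkm (-2.70 ± 0.16), Eno1 (-2.49 ± 0.20), Ldha (-2.44 ± 0.17) and Pgam1 (-2.29 ± 0.20). Slc2a1 was at 0 in 4 of 8 arms and reached 30.4 CPM in the highest (21 UMIs), and was lower (log2 -4.18 ± 0.34, edgeR adjusted p = 1.89e-13). The log2 values of Slc2a1 and Hk2 include UMIs that cannot be told from background here, so no fold is given. No Egln3 UMI was seen, so the gene was at least 25.8-fold lower against a floor of 3 UMIs over the gate. Bnip3 (-3.37 ± 0.33), Slc16a3 (-3.02 ± 0.30), the collagen prolyl hydroxylase gene P4ha1 (-3.00 ± 0.33), Ankrd37 (10 UMIs, -2.93 ± 0.40) and the pyruvate dehydrogenase kinase gene Pdk1 (6 UMIs, -2.26 ± 0.59) were lower as well. Pfkfb3 was higher in mature DCs, at 178 to 563 CPM (median 307) against 71.2 to 165 CPM (median 141). Every arm stood above the monocyte/macrophage range, and the difference was 2.63-fold (log2 1.40 ± 0.19, edgeR adjusted p = 5.46e-08). Ndrg1 (71.0 to 334 CPM, log2 0.61 ± 0.25, edgeR adjusted p = 0.038) and Mxi1 (101 to 379 CPM, log2 0.52 ± 0.21, edgeR adjusted p = 0.0342) were past the threshold too, with ranges that overlap those of the macrophages. Neither passed in DESeq2 (adjusted p = 0.241 and 0.0769), and they passed under 13 and 11 of 23 alternatives, against all 23 for Pfkfb3.

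Genes near the pathway gave the setting. In T cells, 5 of 9 other glycolysis genes were lower and none was higher, led by the myeloid hexokinase gene Hk3 (-6.83), and 4 of 6 pentose phosphate genes were lower, led by Pgd (-2.83), with Rpia (1.26) higher. Other hypoxia genes were mixed, with 13 of 24 lower, such as Tgfbi (-6.65), Vegfa (-5.43) and Slc7a11 (-5.31), and 5 higher, led by Plod2 (5.38). Genes of the TCA cycle were divided (4 higher and 3 lower of 17), 12 of 44 genes of oxidative phosphorylation were lower and 1 was higher, and all 16 cell cycle genes tested were higher. NK cells gave 0 higher and 3 lower of 9 other glycolysis genes, 5 and 13 of 24 other hypoxia genes, 0 and 4 of 6 pentose phosphate genes, 3 and 2 of 17 TCA cycle genes, 2 and 8 of 44 oxidative phosphorylation genes, and 13 and 0 of 16 cell cycle genes. In mature DCs the same counts were 2 and 6, 4 and 16, 1 and 5, 1 and 7, 1 and 22, and 0 and 5. Of the 2 other glycolysis genes that were higher there, Eno3 rose by 3.82 and the mitochondrial pyruvate carrier gene Mpc1 by 1.66 on the log2 scale. Immediate early genes that tissue dissociation can induce were lower in T cells (10 of 14, with 1 higher), NK cells (10, with 1 higher) and mature DCs (10, with none higher), and their part in the differences was not tested.

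The next question was whether the myeloid cells differed among themselves. Monocyte/macrophage cells were divided by which of C1qb, a complement gene of mature macrophages (590 cells), Ly6c2, a marker of recruited monocytes (1195 cells), and Thbs1, the thrombospondin 1 gene (583 cells), had most UMIs in the cell, with 53 ties left out. The summed member level was highest in Thbs1-led cells, at 18133 ± 3604 CPM in the long treatment cohort and 11715 ± 1606 CPM in the short (SD, n = 4 arms each). It was 12171 ± 954 and 8732 ± 1213 CPM in Ly6c2-led cells, and 10500 ± 2344 and 9678 ± 1024 CPM in C1qb-led cells.

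Against C1qb-led cells, 24 of 31 members tested were higher in Thbs1-led cells and 1, Aldoc, was lower, beside 41.2% of all 7042 genes called (20.9% higher and 20.3% lower). The median log2 difference was 0.82 over members and -0.01 over all genes. All 9 hypoxia response genes tested, all 3 oxygen-sensing genes and both transporters tested were higher, as were 9 of 14 enzymes and 1 of 3 regulators. Egln3 changed most, from 0 to 45.3 CPM in C1qb-led arms (median 14.3) to 77.03 to 277 CPM in Thbs1-led arms (median 153). No arm overlapped, and the difference was 6.15-fold (log2 2.62 ± 0.30, edgeR adjusted p = 9.4e-08). Mxi1 rose from 55.0 to 162 CPM (median 79.3) to 194 to 389 CPM (median 316), again with no overlap (log2 1.62 ± 0.18, edgeR adjusted p = 5.82e-08). Ndrg1 (14.4 to 150 against 159 to 422 CPM, log2 1.54 ± 0.28) and Slc2a1 (135 to 242 against 245 to 663 CPM, log2 1.31 ± 0.16, edgeR adjusted p = 3.91e-07) also had separate ranges. Bnip3 overlapped between subsets, at 47.0 to 242 CPM in C1qb-led arms and 217 to 657 CPM in Thbs1-led arms (log2 1.37 ± 0.24, edgeR adjusted p = 4.56e-05). Its relative Bnip3l rose by 1.04 ± 0.16 and Ankrd37 by 1.18 ± 0.22.

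Hif1a ran from 81.8 to 289 CPM in C1qb-led cells (median 153) and from 132 to 605 CPM in Thbs1-led cells (median 399), and rose by 1.31 ± 0.17 on the log2 scale (edgeR adjusted p = 6.17e-07), higher in Thbs1-led cells in 8 of 8 arms. Slc16a3 stood at 60.2 to 193 CPM in C1qb-led arms and at 235 to 345 CPM in Thbs1-led arms, with no overlap (log2 1.23 ± 0.14, edgeR adjusted p = 5.28e-08). At the entry of the pathway, Hk1 rose by 1.22 ± 0.20 and the phosphofructokinase gene Pfkp by 1.11 ± 0.18. The other enzymes, apart from Aldoc, moved less or did not pass, with Gapdh at 0.04 ± 0.11 and Ldha at 0.26 ± 0.12 (edgeR adjusted p = 0.0791) beside Aldoa, Tpi1, Pdk1 and Pfkfb4 among the 6 members that were not called. Aldoc, the aldolase C gene, was the reverse of the rest, at 16.9 to 40.1 CPM in C1qb-led cells and 0 to 13.1 CPM in Thbs1-led cells (log2 -2.28 ± 0.37, edgeR adjusted p = 2.15e-05), lower in 8 of 8 arms.

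**Figure D3:**
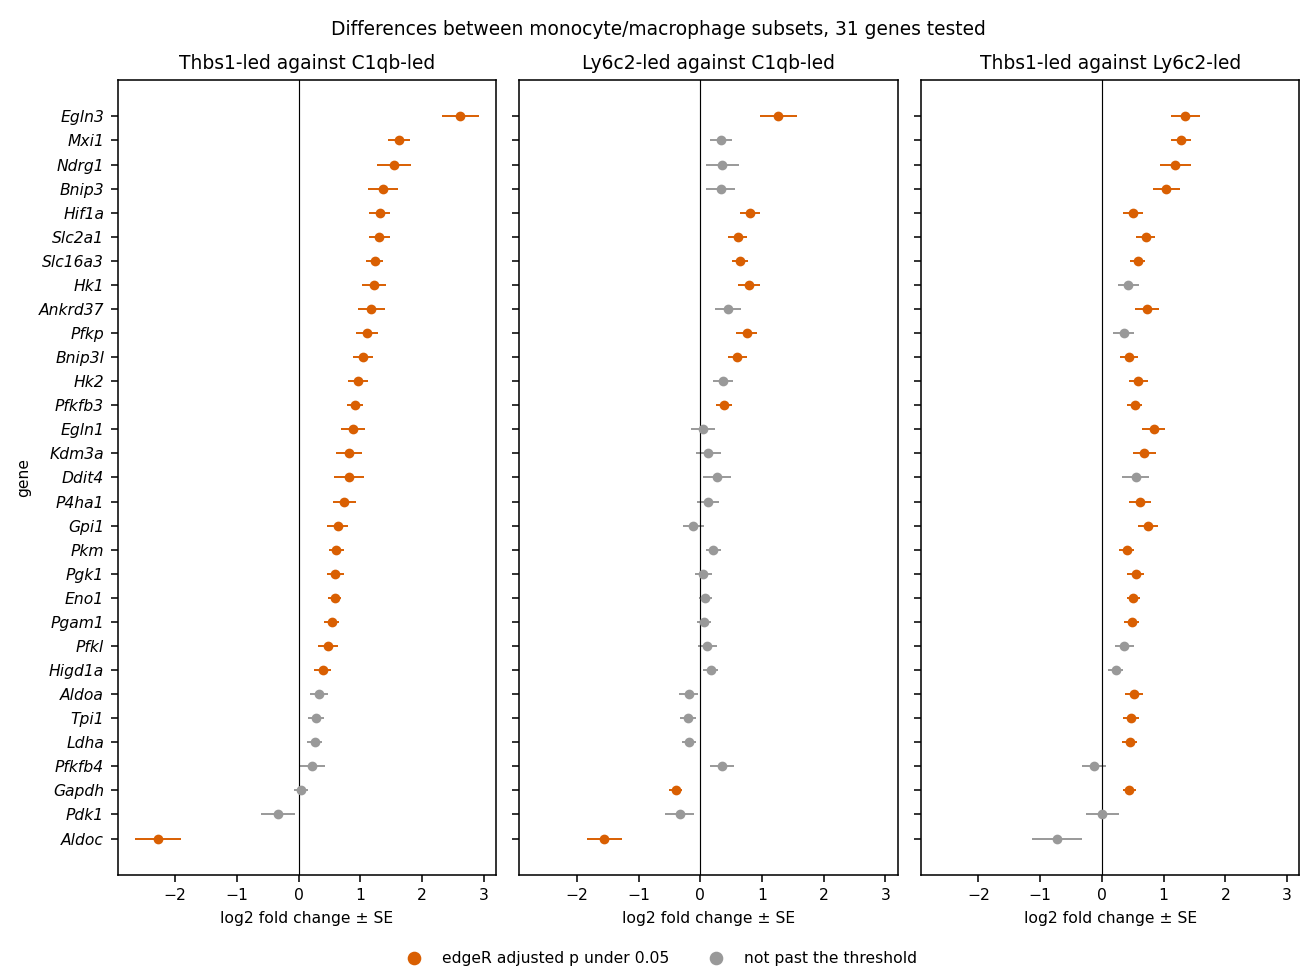
Log2 fold change ± SE of 31 members in 3 panels, for Thbs1-led against C1qb-led, Ly6c2-led against C1qb-led and Thbs1-led against Ly6c2-led cells, with orange points for edgeR adjusted p under 0.05. In the panels of Thbs1-led cells 24 and 23 genes lie to the right of 0 in orange, with Egln3 farthest at 2.62 and 1.35, and Aldoc lies at -2.28 against C1qb-led cells.

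Ly6c2-led cells differed less from C1qb-led cells. Against C1qb-led cells 8 of 31 were higher and 2 lower, beside 32.4% of all genes called (16.4% higher and 16% lower), so that the share of members called (32.3%) equalled the background. The higher members were Egln3 (1.27 ± 0.30), Hif1a (0.81 ± 0.16), Hk1 (0.79 ± 0.18), Pfkp (0.75 ± 0.17), Slc16a3 (0.65 ± 0.13), Slc2a1 (0.60 ± 0.16), Bnip3l (0.60 ± 0.15) and Pfkfb3 (0.38 ± 0.13). Aldoc (-1.55 ± 0.29) and Gapdh (-0.40 ± 0.11) were lower. The medians were 0.21 for members and 0.00 for all genes.

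Between Thbs1-led and Ly6c2-led cells, 23 of 31 members were higher in the former and none was lower, while 9.84% of all genes were called (6.11% higher and 3.73% lower), and the medians were 0.52 and -0.02. The share of members called was 74.2%. The called members were 2 of 2 transporters, 10 of 14 enzymes, 1 of 3 regulators, 7 of 9 hypoxia response genes and 3 of 3 oxygen-sensing genes. Egln3 ran from 34.1 to 84.8 CPM (median 56.1) in Ly6c2-led cells against 77.03 to 277 CPM in Thbs1-led cells and rose by 1.35 ± 0.24 (edgeR adjusted p = 0.000463). Mxi1 ran from 99.6 to 168 CPM against 194 to 389 CPM and rose by 1.29 ± 0.16 (edgeR adjusted p = 1.15e-05). Egln3 overlapped in range and Mxi1 did not, and both were higher in Thbs1-led cells in 8 of 8 arms. The next in size were Ndrg1 (1.19 ± 0.25), Bnip3 (1.04 ± 0.22), Egln1 (0.84 ± 0.18), Gpi1 (0.74 ± 0.17), Ankrd37 (0.73 ± 0.19), Slc2a1 (0.71 ± 0.15), the histone demethylase gene Kdm3a (0.69 ± 0.19), P4ha1 (0.62 ± 0.17), Hk2 (0.59 ± 0.15) and Slc16a3 (0.58 ± 0.12). Slc2a3, P4ha2 and Adm had too few UMIs to test in the subsets. With each cell thinned to 2000 UMIs, 8, 5 and 3 members were called in these subset comparisons in the order given, of 26 tested, beside 32.8%, 31.2% and 3.25% of all genes, so that the first count was near its background and the second below it. With cells that held UMIs of only 1 of the 3 markers, the counts were 10, 3 and 9 of 30, beside 16.8%, 20% and 3.29% of all genes, with the second again below its background, and every called member other than Gapdh in Ly6c2-led against C1qb-led cells was higher.

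Genes outside the set followed by group. Other hypoxia genes were higher in Thbs1-led than in C1qb-led cells for 16 of 27 and lower for 4, led by Pgf (2.71), Ero1l (2.15), Hilpda (2.10) and Slc7a11 (1.37). Against Ly6c2-led cells 12 of 27 were higher and none lower, led by the lipid droplet gene Hilpda (1.47), Vegfa (1.31), Ero1l (1.20) and Slc7a11 (1.15). Other glycolysis genes gave 3 higher and none lower of 14 in the first comparison (Gbe1 0.97, Pdk3 0.80 and Eno1b 0.42) and none in the last, and Eno1b is a near-identical copy of Eno1 whose reads could be divided between the pair. Oxidative phosphorylation ran the other way against C1qb-led cells, with 17 of 45 genes lower, such as Ndufa5 (-1.11), and 1 higher, Ndufa4 (1.03), and so did the TCA cycle (8 of 18 lower and none higher, led by Fh1 at -1.65 and Idh2 at -1.13). Against Ly6c2-led cells only 1 gene of each list was lower. Pentose phosphate genes gave 1 higher of 7 in the first comparison and 0 in the last. Ly6c2-led against C1qb-led cells gave 2 and 0 of 14 other glycolysis, 5 and 1 of 27 other hypoxia, 2 and 0 of 7 pentose phosphate, 1 and 4 of 18 TCA cycle and 2 and 14 of 45 oxidative phosphorylation genes, higher and lower.

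Some genes of other programs moved with the subsets. Cell cycle genes were lower in Thbs1-led than in C1qb-led cells (11 of 12, led by Birc5 at -3.57), lower in Ly6c2-led cells (10 of 12), and not different at the threshold between Thbs1-led and Ly6c2-led cells (0 of 12). Dissociation stress genes were higher in Thbs1-led than in C1qb-led cells for 8 of 14 and lower for 1, with the list sum at a median of 10005 against 6056 CPM, and the sum was 9283 CPM in Ly6c2-led cells, where 8 were also higher and 1 lower. Between Thbs1-led and Ly6c2-led cells 2 of 14 were higher and none lower. Neutrophil genes, of which S100a8 had most UMIs, were higher for 5 of 5 tested in both subsets against C1qb-led cells and for 1 of 5 between them, with list sums of 93.3 to 7595 CPM over Thbs1-led arms (median 1511), 113 to 17957 CPM over Ly6c2-led arms (median 152) and 27.5 to 95.6 CPM over C1qb-led arms (median 49.1). Cells with 5 or more neutrophil UMIs made up 7.03% of Thbs1-led, 3.85% of Ly6c2-led and 0.169% of C1qb-led cells. Leaving them out, an alternative chosen after seeing the data, gave 24 higher and 1 lower, 10 higher and 2 lower, and 22 higher and 0 lower members in the 3 comparisons, of 31 tested, beside 41.5%, 33.2% and 8.94% of all genes called, so that the count in the second was near its background. The part of the stress and cell cycle genes was not tested.

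The cohorts were compared next, which asks how the program stood on day 21 after the longer treatment and on day 14 after the shorter. Transcripts of 5 glycolytic enzymes, Aldoa, Gapdh, Gpi1, Ldha and Pkm, were higher in the long treatment cohort in both the monocyte/macrophage and the T cell gates. In an additive model over the 8 arms (cohort, anti–PD-1 and anti-MIF), 5 of 32 members tested were higher and 1 was lower in monocyte/macrophage cells of the long cohort, beside 5.34% of all 9366 genes called (2.4% higher and 2.94% lower). The arms served as replicates of each other in these models, and p-values measure only the spread between arms. In T cells, 5 of 27 members were higher and none lower, beside 6.62% of all 5510 genes (3.3% higher and 3.32% lower). All 5 were enzymes (of 14 tested in monocyte/macrophage cells and 12 in T cells), and no transporter, regulator or oxygen-sensing gene passed in either gate. The enzymes that did not pass lay on both sides of 0, from Hk2 (-0.41) to Tpi1 (0.56) in monocyte/macrophage cells and from Pfkp (-0.43) to Pgam1 (0.74) in T cells.

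In monocyte/macrophage cells, Gapdh was at 2878, 2658, 2668 and 2423 CPM in the ctrl/isotype, anti–PD-1, anti-MIF and combined arms of the long cohort and at 1763, 1808, 2150 and 1782 CPM in those of the short. Aldoa, the aldolase A gene, was at 1674, 1559, 1465 and 1239 CPM against 922, 919, 1097 and 923 CPM in the same order. Every long arm was above every short arm for both, and the log2 differences were 0.50 ± 0.11 and 0.61 ± 0.12 (edgeR adjusted p = 0.036 and 0.0273). Pkm, the pyruvate kinase M gene, was at 1814, 1618, 1397 and 1338 CPM against 895, 1113, 1076 and 948 CPM. Ldha was at 1160, 1067, 1097 and 907 CPM against 670, 666, 792 and 702 CPM. These did not overlap either, and rose by 0.60 ± 0.13 and 0.57 ± 0.11 (edgeR adjusted p = 0.0338 and 0.0282). The glucose-6-phosphate isomerase gene Gpi1 was at 750, 597, 573 and 614 CPM against 371, 337, 483 and 354 CPM (log2 0.72 ± 0.15, edgeR adjusted p = 0.0282). Kdm3a went down, at 28.2, 22.9, 24.6 and 19.0 CPM in the long cohort and 35.02, 41.99, 51.7 and 48.1 CPM in the short, with no overlap (log2 -0.94 ± 0.18, edgeR adjusted p = 0.0259). Of the hypoxia-related genes, Slc2a1 (-0.05 ± 0.23), Bnip3 (0.12 ± 0.17), Egln3 (-0.41 ± 0.31), Hif1a (-0.41 ± 0.15) and Ndrg1 (-0.54 ± 0.25) did not pass.

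In T cells, Pkm was at 767, 966, 803 and 864 CPM in the long cohort and at 633, 398, 356 and 389 CPM in the short. Aldoa was at 1174, 1516, 1259 and 1414 CPM against 901, 695, 703 and 559 CPM. For both the cohorts lay apart, by 0.91 ± 0.17 and 0.86 ± 0.15 on the log2 scale (edgeR adjusted p = 0.0124 and 0.00918). Ldha was at 1016, 1062, 997 and 890 CPM against 706, 481, 493 and 559 CPM (log2 0.78 ± 0.14, edgeR adjusted p = 0.0106). Gapdh was at 2121, 2287, 2134 and 2220 CPM against 2045, 1325, 1205 and 1324 CPM (log2 0.53 ± 0.14, edgeR adjusted p = 0.0427). Neither overlapped, but the short ctrl/isotype arm, a sum of 35 T cells, came close to the long arms in Gapdh. Gpi1 was at 513, 400, 499 and 382 CPM against 402, 229, 228 and 243 CPM, so that this arm overlapped the long cohort (log2 0.68 ± 0.17, edgeR adjusted p = 0.0346). Slc2a1 (0.15 ± 0.27), Bnip3 (-0.07 ± 0.52), Hif1a (-0.26 ± 0.18) and Ndrg1 (-1.01 ± 0.50) did not pass, and Egln3 had too few UMIs in T cells to test.

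**Figure D4:**
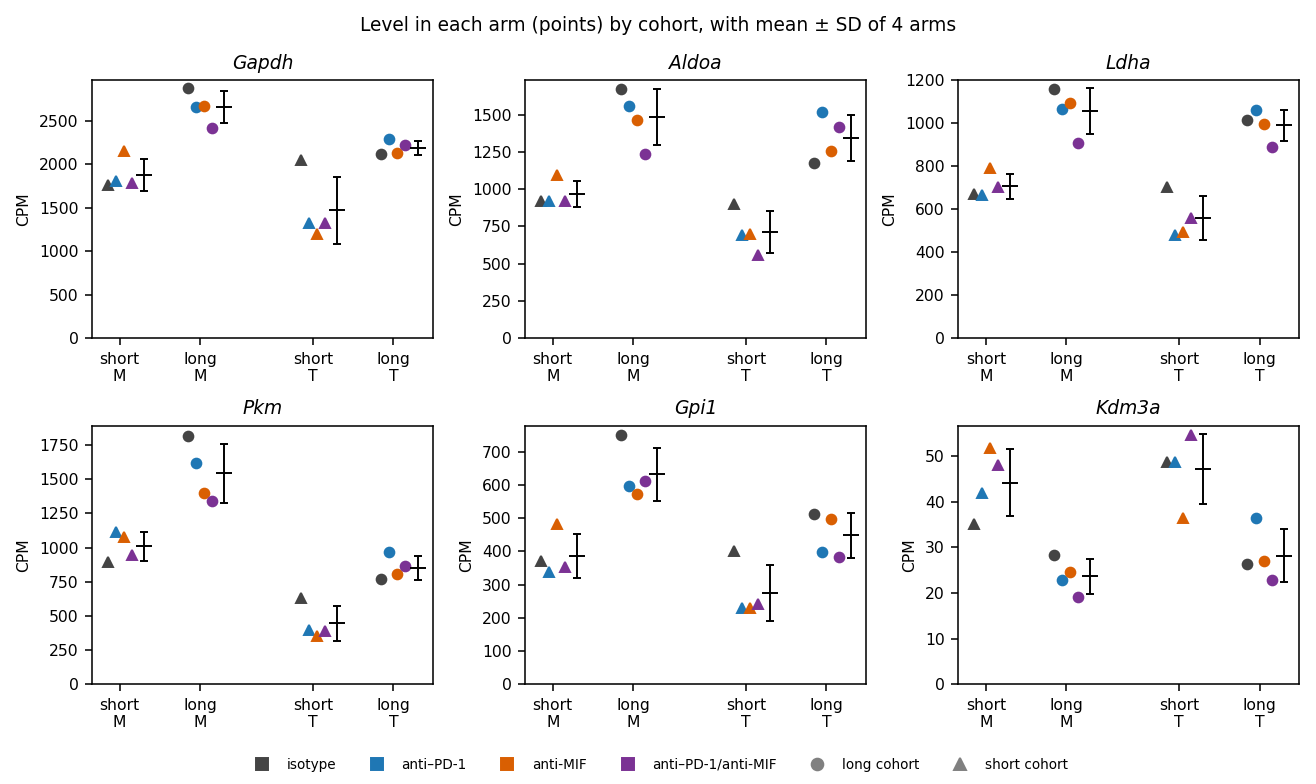
CPM of Gapdh, Aldoa, Ldha, Pkm, Gpi1 and Kdm3a in monocyte/macrophage (M) and T cells (T) of the short and long treatment cohorts, with points for arms and mean ± SD of 4 arms. The 6 genes are the members that passed between cohorts in monocyte/macrophage cells, so their separation there is no further support. In that gate each separates the cohorts completely, with Kdm3a the one that is lower in the long cohort (19.0 to 28.2 against 35.02 to 51.7 CPM). Pgam1 and Eno1, not shown, also had separate ranges in that gate and did not pass.

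Leaving out 1 arm changed these calls in both gates. Without the long anti–PD-1, short anti–PD-1, short anti-MIF or short anti–PD-1/anti-MIF arm, no member was called in monocyte/macrophage cells, where the calls over all genes fell from 500 to 1, 31, 21 and 15, and without the long anti-MIF arm 3 members were, beside 0.97% of all genes. Without the long ctrl/isotype arm 3 were higher (Aldoa, Gpi1 and Ldha) and 4 lower (Hif1a, Kdm3a, Pfkfb3 and Pfkp), beside 9.31% of all genes, and without the long anti–PD-1/anti-MIF or the short ctrl/isotype arm 5 were higher and 1 lower, beside 4.15% and 5.48%. In T cells 2 members, Aldoa and Ldha, were called without the long anti–PD-1/anti-MIF arm, beside 1.79% of all genes, and 3 without the long anti–PD-1, long anti-MIF or any of the short antibody arms, beside 2.57% to 7.62% of all genes. The count stayed at 5 without the long ctrl/isotype arm (3.71% of all genes) and was 7, with Pgk1 and Ddit4, without the short ctrl/isotype arm (4.29%). Subset makeup differed between the pooled cohorts too, since 349 of 720 monocyte/macrophage cells (48.5%) were C1qb-led and 103 were Thbs1-led on day 21, against 241 (14.2%) and 480 of 1701 on day 14. The long anti-MIF arm held 270 of the 349 C1qb-led cells, and without it their share was 79 of 280 (28.2%). In the ctrl/isotype arms it was 13 of 70 (18.6%) in the long and 86 of 429 (20.05%) in the short cohort. Within Ly6c2-led cells 6 members, the 5 enzymes and Pgam1, were higher in the long cohort and none passed as lower, beside 2.28% of all genes called. Within C1qb-led or Thbs1-led cells no member passed, at log2 differences of 0.20 for Aldoa, 0.22 for Gapdh and 0.32 for Ldha in C1qb-led cells and of 0.97, 0.71 and 0.70 in Thbs1-led cells, where 1 and 0 genes were called in all.

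Beyond the 34 genes, 1 of 18 other glycolysis genes was higher in long-cohort monocyte/macrophage cells (Eno1b, 1.80), with 2 of 30 other hypoxia genes lower, 1 of 8 pentose phosphate genes higher (Tkt, 0.71), 2 of 19 TCA cycle genes higher (Fh1 0.99 and Mdh1 0.51), 4 of 20 cell cycle genes higher, and none of 45 oxidative phosphorylation, 14 stress and 5 neutrophil genes called. In T cells the calls among these lists were Eno1b (2.49), Zfp292 (-0.65), Idh3a (1.00), Idh3b (0.99), 1 cell cycle gene higher and 1 stress gene lower, with none of the pentose phosphate and oxidative phosphorylation genes. Of the 6 T cell genes, Cd8a (0.73) and Cd3g (0.70) were higher and Trbc2 (-0.83) was lower in T cells of the long cohort, and their part in the cohort difference was not tested. The stress list summed to 9104 CPM in the long and 7906 CPM in the short cohort in monocyte/macrophage cells and to 3991 and 2824 CPM in T cells, and its part in the cohort difference was not tested.

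The treatments were compared last, to ask whether blocking MIF or PD-1 moved the program in either cell type. No member passed for anti-MIF or anti–PD-1 in monocyte/macrophage or T cells, and neither did any other gene (0% of all genes in each of the 4 comparisons). At an unadjusted p under 0.05, edgeR listed 544 and 404 genes for anti-MIF and anti–PD-1 in monocyte/macrophage cells, among them Aldoc and Hif1a for anti-MIF and Ankrd37 for anti–PD-1, and DESeq2 called 2 and 0 genes, none of them a member. In T cells it listed 234 and 211 genes, with no member for anti-MIF and Bnip3, Slc2a1, Gpi1 and Pgk1 for anti–PD-1. The smallest adjusted p of any member was 0.833 and 0.973 in monocyte/macrophage cells.

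With the 4 anti-MIF arms set against the other 4, the monocyte/macrophage differences were -0.40 ± 0.15 for Hif1a, -0.23 ± 0.25 for Ndrg1, -0.18 ± 0.17 for Bnip3, -0.07 ± 0.30 for Egln3, -0.04 ± 0.11 for Ldha and -0.01 ± 0.23 for Slc2a1 on the log2 scale. For anti–PD-1 they were -0.21 ± 0.17 for Bnip3, 0.17 ± 0.15 for Hif1a, 0.16 ± 0.30 for Egln3, -0.12 ± 0.11 for Ldha, 0.09 ± 0.23 for Slc2a1 and 0.03 ± 0.25 for Ndrg1. In T cells anti-MIF gave -0.50 ± 0.54 for Bnip3, -0.16 ± 0.14 for Ldha, 0.14 ± 0.50 for Ndrg1, 0.04 ± 0.18 for Hif1a and 0.00 ± 0.26 for Slc2a1. Slc2a1 in T cells was at 97.9, 70.1, 81.0 and 65.0 CPM in the long and at 103, 35.04, 110 and 48.6 CPM in the short cohort. Both arms with anti–PD-1 were below both arms without it in each cohort, and the log2 difference was -0.88 ± 0.27 (edgeR adjusted p = 1.00). For the other genes anti–PD-1 gave -1.18 ± 0.54 for Bnip3, -0.16 ± 0.50 for Ndrg1, -0.15 ± 0.14 for Ldha and -0.03 ± 0.18 for Hif1a.

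**Figure D5:**
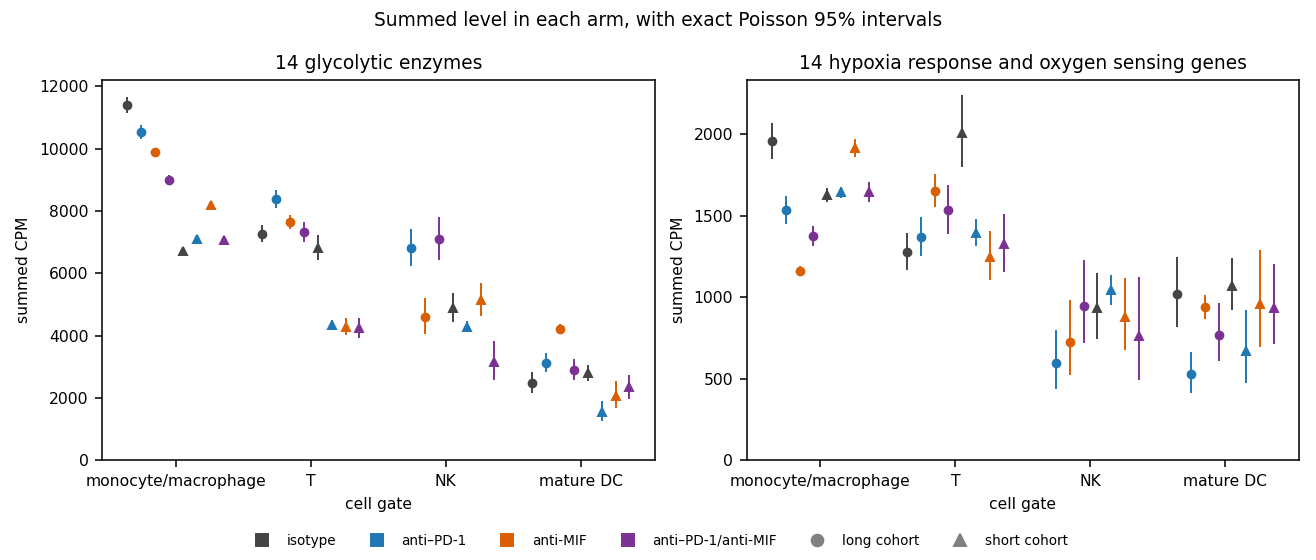
Summed CPM of the 14 glycolytic enzymes and of the 14 hypoxia response and oxygen-sensing genes in each arm of both cohorts by gate, with exact Poisson 95% intervals that cover counting error only. The long ctrl/isotype arm is the highest of the monocyte/macrophage arms for the enzymes (11412 CPM) and for the hypoxia genes (1955 CPM), and the short anti-MIF arm stands above its cohort in the latter (1914 CPM).

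Whether the anti-MIF difference itself differed between cohorts was tested with an interaction term. Slc2a1 in monocyte/macrophage cells was at 369 and 316 CPM in the long arms without anti-MIF and at 210 and 254 CPM in those with it, and at 203 and 268 CPM without and 362 and 349 CPM with it in the short cohort. In the long cohort both anti-MIF arms were lower, and in the short cohort both were higher. The interaction was -1.14 ± 0.28 on the log2 scale, and did not pass (edgeR adjusted p = 0.283, the smallest of any member). Egln3 had the same form, at 76.9 and 76.97 against 32.9 and 57.1 CPM in the long and at 70.0 and 50.3 against 86.4 and 98.1 CPM in the short cohort (-1.42 ± 0.41, edgeR adjusted p = 0.393). No gene passed in edgeR (0% of all genes), DESeq2 called 34 genes (0.363%) and no member, 909 genes had an unadjusted p under 0.05, and 31 of 32 members had a negative sign with a median of -0.41 against 0.01 over all genes. Beside Slc2a1 and Egln3, Egln1 (-0.63 ± 0.28), Higd1a (-0.61 ± 0.25) and Tpi1 (-0.61 ± 0.23) were under that unadjusted level. Without the long anti–PD-1/anti-MIF arm 3 members passed, namely Slc2a1, Egln3 and Ddit4, beside 1.34% of all genes.

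Subset makeup differed among these arms as well, since C1qb-led cells were 270 of 440 monocyte/macrophage cells in the long anti-MIF arm and 13 of 70 in the long ctrl/isotype arm. Within Ly6c2-led cells, Slc2a1 was at 327, 340, 280 and 224 CPM in the long and 186, 250, 384 and 302 CPM in the short cohort. Within C1qb-led cells it was at 135, 135, 166 and 164 CPM and at 160, 242, 139 and 236 CPM. Within Thbs1-led cells it was at 663, 646, 358 and 464 CPM and at 245, 338, 431 and 632 CPM. The reversal between cohorts was thus seen in the Ly6c2-led and Thbs1-led values and not in the C1qb-led ones, and it was not tested within subsets. For cohort by anti–PD-1, 3 genes passed in monocyte/macrophage cells (0.032% of all genes), none of them a member, with 288 genes and 1 member under an unadjusted p of 0.05. In T cells no gene passed for either interaction (374 genes and 1 member for anti-MIF, and 208 genes and 3 members for anti–PD-1, under the unadjusted level in edgeR).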

How the data were processed

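The deposited matrices hold UMI counts per gene and cell that the authors made with Cell Ranger 7.1.0 on mm10 from 10x 5′ libraries, and the hashtag counts were deposited with them. The submitters' processing notes also name R 4.3.2, Seurat 5.1.0 and DESeq2, and the annotation version is not given in the sources used here. Hashtags were assigned with Seurat 5.3.0 (HTODemux, quantile 0.99), which removes droplets that carry 2 hashtags and leaves doublets within an arm. Another hashtag, which the sample labels do not name, appears in the deposited hashtag list as anti–PD-1, anti-MIF and anti-DDT together. Its cells entered no test and were only set beside the ctrl/isotype arm, as described below. Cells with 200 to 5000 genes and at most 5% mitochondrial UMIs were gated on the marker UMIs named above (Lyz2 at 5 or more, the others at 1 or more), and summed per arm and gate where at least 5 cells were present. Sums were tested with edgeR 4.0.16 in R 4.3.3 (quasi-likelihood test, TMM scaling, filterByExpr, Benjamini-Hochberg over all genes, threshold 0.05). Gates and subsets were compared with the arm as a block, and cohorts and treatments in an additive model over 8 arms. A level is a CPM, and intervals on CPM are exact Poisson 95% intervals for counting error only.

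The 34 members and the further lists (other glycolysis, other hypoxia, pentose phosphate, TCA cycle, oxidative phosphorylation, cell cycle, dissociation stress, neutrophil and melanoma genes) were chosen with earlier results of these data known. In each comparison the rule named the 12 called members with the largest log2 fold change, Hif1a, Slc2a1, Ldha, Bnip3, Egln3 and Ndrg1 in every cohort and treatment comparison, and up to 4 called genes of each further list. Other members and genes named in the text were chosen after their values were seen. A second Aldoa row of 14 UMIs was not used. The fits were checked on simulated data. Alternatives covered DESeq2 1.42.0, scaling, filters, gates, thinning, another hashtag caller, single cohorts and each arm left out.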

Additional observations from a re-analysis of the deposited data

Results flagged for a closer look

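Among the 69 groups of 4 arms examined, 11 held an arm far from the other 3 by Dixon's test. At its 95% critical value, chance flags about 1 in 20 groups. The groups are not independent, since the sums hold the single genes named beside them and only 2 arms gave all 11. In monocyte/macrophage cells of the short treatment cohort it was the anti-MIF arm each time, on the high side, for the summed hypoxia response and oxygen-sensing genes (1914 CPM), Bnip3 (243.9 CPM), Gapdh (2150 CPM) and Aldoa (1097 CPM). In T cells of the short treatment cohort it was the ctrl/isotype arm, a sum of 35 cells, that stood above the others for all members summed (9186 CPM), the glycolytic enzymes summed (6812 CPM), Hif1a (700.04 CPM), Gapdh (2045 CPM), Pkm (633 CPM) and Gpi1 (402 CPM), and below them for Slc2a3 (48.7 CPM). That Slc2a3 level rests on 8 UMIs, and its 95% counting interval of 21.02 to 95.96 CPM holds the other 3 arms (58.8 to 60.7 CPM).

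Cells of the fifth hashtag, which the deposited hashtag list names as anti–PD-1, anti-MIF and anti-DDT together, entered no test. They were set beside the ctrl/isotype arm of the same cohort in the 6 pairs of gate and cohort with at least 5 cells in both. The summed member level was higher, with 95% counting intervals apart, in 4 pairs: monocyte/macrophage cells of the long (14843 CPM) and short (10504 CPM) treatment cohorts, T cells of the long (11486 CPM) and mature DCs of the short (5473 CPM). It was lower in T cells of the short cohort (6964 against 9186 CPM), and in NK cells of the short cohort the intervals overlapped (5113 and 5983 CPM). These are single samples without a test.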

How the results depend on the processing

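Of 3194 alternative values of members that had passed their test, 4 had the other sign, none of them past the threshold, all with cells thinned to 2000 UMIs: Gpi1 (-0.04), Higd1a (-0.05) and Ddit4 (-0.07) in Thbs1-led against C1qb-led and Bnip3l (-0.17) in Thbs1-led against Ly6c2-led cells. Of 6623 values of members that had not passed, 698 had the other sign. Of the counts and summary values recomputed, 309 stayed near the reported value and 29 moved. Without the filter on low counts, 16 members were called in Ly6c2-led against C1qb-led cells (14.3% of all genes), 10 between cohorts in monocyte/macrophage cells (6.26%), and 3 (Slc2a1, Egln3 and Ddit4) for cohort by anti-MIF (1.35%). Thinned to 2000 UMIs a cell, the calls were 8 in Thbs1-led against C1qb-led cells, 5 in Ly6c2-led against C1qb-led, 3 in Thbs1-led against Ly6c2-led and 3 (Aldoa, Gapdh and Pkm) between cohorts in monocyte/macrophage cells (1.25% of all genes). With UMIs of only 1 subset marker in the cell they were 10, 3 and 9 in the same 3 subset comparisons. In the short cohort alone they were 5 in Ly6c2-led against C1qb-led (19.8% of all genes) and 10 in Thbs1-led against Ly6c2-led cells (3.23%), and 7 for the latter in the long cohort alone (2.76%). Within C1qb-led and within Thbs1-led cells the cohort comparison gave 0 and 0, and looser gates gave 3 in T cells (4.9%). These settings test fewer genes, cells or arms, apart from the filter and the looser gates. The cause of the changed counts was not tested for any setting.

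Leaving out 1 arm at a time gave 0 to 7 calls between cohorts in monocyte/macrophage cells and 2 to 7 in T cells. It gave 0 to 3 for cohort by anti-MIF and 0 to 1 (Ddit4, without the long ctrl/isotype arm, beside 0.205% of all genes) for cohort by anti–PD-1. The subset counts were 23 to 28 in Thbs1-led against C1qb-led cells (35.5% to 39.8% of all genes), 9 to 13 in Ly6c2-led against C1qb-led (28% to 30.5%), and 18 to 22 in Thbs1-led against Ly6c2-led (7.21% to 9.17%). Only the lower end of the second was near its background. Against monocyte/macrophage cells the counts were 22 to 24 in T cells (63% to 65.8%), 22 to 25 in NK cells (46.3% to 54.8%) and 24 to 27 in mature DCs (54.1% to 61.1%). Both antibodies gave 0 throughout. Scaling by library size alone moved the median of all genes to 0.21 in T and 0.17 in NK cells, against 0.03 and -0.06. No paired analysis was possible because each cohort's label group holds a single replicate, so that no replicate numbers pair samples; gates and subsets of 1 arm were compared with the arm as a block. The smallest sums were those of NK cells and mature DCs, which reached down to 32926 and 44852 UMIs.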

Other observations

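Across the 31 sums of arm and gate, the genes whose log2 level was most like that of Slc2a1 among 5857 genes were Emp3 (Pearson's r = 0.891), Slc43a2 (0.882), Ncf4 (0.875), Plac8 (0.874) and Aprt (0.873). For Bnip3 they were Ltb4r1 (0.908), Ecm1 (0.895), Ccl2 (0.894), Tgfbi (0.894) and Fcgr1 (0.892). The sums share arms and libraries, and gates of 1 arm are not independent, so these are descriptions with no test.

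Promoters of members that were higher in Thbs1-led than in C1qb-led cells held a hypoxia response core in 18 of 22 (81.8%), and the other members in 7 of 9 (77.8%). Among all genes higher in Thbs1-led cells the share was 651 of 1146 (56.8%), against 59.4% of all genes tested there.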
